A study of Homo sapiens with 12 samples.

Results

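The common response to ML210 was the change in expression shared by 2 human neuroblastoma lines, estimated from all 12 libraries of the series. It compared 6 libraries of cells cultured overnight with ML210 with 6 control libraries. For each of the lines SK-N-AS and SK-N-BE(2) the labels give 3 libraries with and 3 without ML210, all with the genotype WT and a batch number from 1 to 3. SK-N-BE(2) and SK-N-AS are established neuroblastoma cell lines, described in the series as MYCN-amplified and non-amplified. There was 1 line of each kind, the dose of ML210 is not given in the labels, and nothing beyond the batch number states that the 3 libraries of a group came from separate cultures. P-values therefore measure the spread between these libraries only. A gene was counted in the common response when the main effect of ML210, fitted with line label and batch as blocks, passed an adjusted p of 0.05 and the fitted change had the same direction under both line labels.

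ML210 blocks GPX4 by covalent attachment. GPX4 is a selenoprotein that spends glutathione to reduce lipid hydroperoxides in membranes. Cells in which GPX4 is blocked can die by ferroptosis, an iron-dependent death driven by lipid peroxidation, which cystine uptake through SLC7A11, glutathione synthesis and the ubiquinone reductase AIFM2 (FSP1) counteract. Electrophiles and oxidants also release the transcription factor NRF2 (NFE2L2) from KEAP1. NRF2 binds antioxidant response elements as a partner of small MAF proteins and drives genes of thiol, NADPH and xenobiotic metabolism. Metallothioneins are small cysteine-rich proteins that bind zinc and copper, and their genes carry metal response elements read by the zinc sensor MTF1.

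MYCN, used as a check of the line labels, went against them in all 12 libraries. It stood at 3458 to 3933 CPM (read counts scaled to a common library size) in the 6 libraries labelled SK-N-AS and at 0.0607 to 0.240 CPM in the 6 labelled SK-N-BE(2). The libraries are therefore named by their label throughout. The effect of ML210 was estimated inside each label, so a swap of whole line labels would exchange the names of the 2 within-label responses and leave the common response as it is. Library totals ran from 54047293 to 83481963 counted reads. Marker genes of a label were protein-coding, with at least 50 CPM in each of its libraries. In each library of the other label they were under 3% of its mean. Of 42 such genes for the SK-N-BE(2) label, the median level in SK-N-AS replicate 1 was 0.346% and 0.362% of the SK-N-BE(2) level. In SK-N-AS replicates 2 and 3 it was 1.19% to 1.77%. Of 69 genes of the reverse kind the median was 0.256% to 0.525%. These low levels are called traces, and the rule keeps them under 3%. The source of those reads was not tested. The share of reads from mitochondrially encoded genes was 1.94% to 5.28% in controls and 2.02% to 4.39% with ML210 (exact sign-flip test over 6 pairs, two-sided p = 0.344, smallest possible 0.03125).

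GPX4, the protein target, was at 282, 266 and 261 CPM in controls against 254, 247 and 245 CPM with ML210 under the SK-N-AS label, and 242, 257 and 241 against 215, 239 and 249 CPM under the SK-N-BE(2) label. Its transcript was lower in 5 of 6 same-numbered pairs by a small amount, and the groups overlapped labelled SK-N-BE(2). The common log2 fold change was -0.097 ± 0.037 (SE), which did not pass the test (edgeR quasi-likelihood, adjusted p = 0.21). ML210 acts on the protein, so the GPX4 transcript is no check of the treatment.

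Of 20304 genes tested, 439 passed the common test. They were 188 higher with ML210, 0.926% of genes tested, and 251 lower, 1.24%. The same direction under both labels was found for 435 of them, 2.14% of genes tested, 187 higher and 248 lower. The 4 others were CRYM, HKDC1, SERPINB1 and TTC9, which were all called within the SK-N-BE(2) label and had at most 0.66% of that level in the controls labelled SK-N-AS. HKDC1 had 0 reads in all 6 libraries labelled SK-N-AS, so it has no direction there. These 4 were chosen for naming after their values were seen. Most shared changes were small. The median size was 0.33 on the log2 scale for genes that rose and 0.25 for genes that fell, against 0.11 over all genes tested. A log2 change of at least 1 in size was reached by 30 of the genes that rose and 8 of those that fell.

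The number of genes called depended on the fit. None of the 88 genes recomputed one by one changed sign under another fit. Without SK-N-BE(2) replicate 2 the test called 44 genes higher and 29 lower, and without SK-N-BE(2) replicate 3 it called 86 and 77. Leaving out SK-N-BE(2) replicate 1 gave 167 and 108, and leaving out SK-N-AS replicate 3 gave 149 each way. Without the replicate block 76 and 50 genes passed. Averaging the 2 line-specific responses, which does not count a difference between the labels as spread, called 545 and 695. Scaling by library totals in place of TMM changed the split from 42.8% to 71.5% higher (324 against 129 genes). It moved the median of all genes by 0.03 on the log2 scale. Same-way genes called in each of these fits, with DESeq2 and limma-voom, with other filters and scalings and with each single pair left out numbered 45, of which 34 were higher and 11 lower. Among them were NQO1, TRIM16L, TRIM16, PIR, GCLC, AKR1C3, OSGIN1, AIFM2, MT1X, MAFG, TFE3, CPT1A, SLC6A9, CEBPB, HR, HTR2B and TP53INP2.

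**Figure D1:**
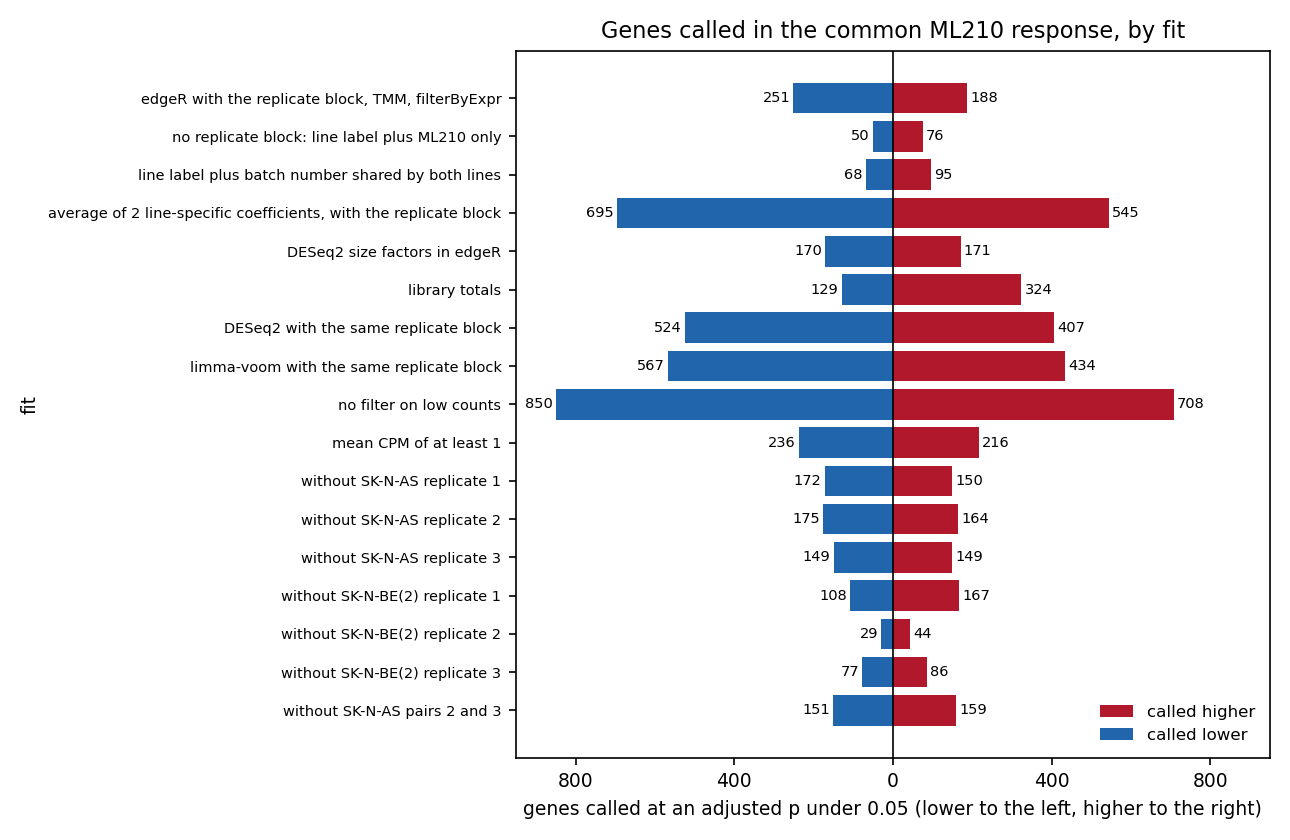
Number of genes called higher (red, to the right) and lower (blue, to the left) with ML210 in the common response, at an adjusted p under 0.05, for each fit. The fit of 6 blocks and TMM scaling, at the top, called 188 higher and 251 lower, and the fit without SK-N-BE(2) replicate 2 called 44 and 29.

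The responses under the 2 labels share no control library and were set side by side. Within the SK-N-AS label 38 genes were called (0.187% of genes tested), 21 higher and 17 lower, and within the SK-N-BE(2) label 1386 were called (6.83%), 695 higher and 691 lower. Of the 38 genes, 32 (84.2%) had the same direction labelled SK-N-BE(2). Of the 1386, 1051 (75.8%) had the same direction labelled SK-N-AS, while 57.0% of all genes tested did. Both labels called 29 genes, which is 76.3% of the SK-N-AS calls and 2.09% of the SK-N-BE(2) calls, and 28 of them moved the same way. The exception was ENPP2, a secreted lysophospholipase D, at -0.35 labelled SK-N-AS and 0.30 labelled SK-N-BE(2) (log2). Its controls labelled SK-N-BE(2) held 1.43% of the SK-N-AS level. They were at 6.38, 4.98 and 7.01 CPM against 6.62, 6.25 and 9.93 CPM with ML210, with overlap. Whether those reads come from the cells of that label was not tested. Across 12387 genes with a mean of at least 1 CPM under both labels, the log2 changes had a Pearson r of 0.368 and a Spearman rho of 0.274, given as a description across genes. The response was the larger one labelled SK-N-BE(2) for 145 of the 187 genes that rose and 185 of the 248 that fell. The same share over all genes tested was not computed. Across the 12387 genes the log2 changes were wider labelled SK-N-BE(2) in general (SD 0.250, against 0.166 labelled SK-N-AS). Without SK-N-BE(2) replicate 2 the SK-N-AS and SK-N-BE(2) labels gave 14 and 291 calls, and without SK-N-BE(2) replicate 3 they gave 119 and 1864.

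**Figure D2:**
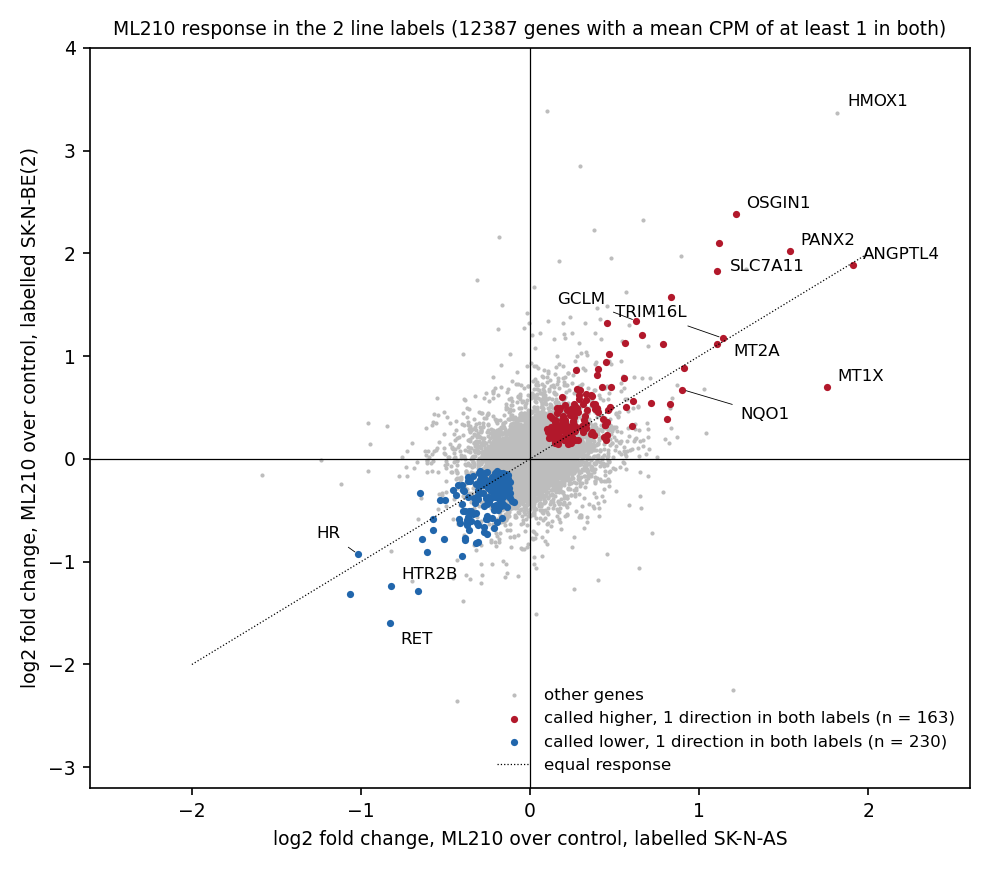
Log2 fold change of ML210 over control labelled SK-N-AS (x axis) and labelled SK-N-BE(2) (y axis) for 12387 genes with a mean CPM of at least 1 under both labels. Red and blue points are the genes of the common response (163 higher, 230 lower), and ANGPTL4, TRIM16L and HR lie near the dotted line of equal response while HMOX1, OSGIN1 and RET lie further out on the SK-N-BE(2) axis.

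Some targets of NRF2 rose. The 3 lists of them held 44 genes, of which 43 were tested, and 16 rose, beside 0.926% of all genes tested. No member was lower by any of the tools run, and at an unadjusted p under 0.05 the edgeR fit had 35 higher and 0 lower. Of all 20304 genes tested, 3276 had an unadjusted p under 0.05 in that fit, in either direction. The fitted change was positive for 42 of the 43, for 37 of them under both labels, and 27 were higher in 6 of 6 same-numbered pairs. The median log2 fold change was 0.36, against -0.0042 over all genes tested, and it was 0.19 labelled SK-N-AS and 0.56 labelled SK-N-BE(2). The fit without SK-N-BE(2) replicate 2 had 9 members higher, and with the averaged line-specific responses 30 did.

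The antioxidant and thioredoxin group held 15 tested members, 6 of which rose: NQO1, PIR, TRIM16L, TRIM16, OSGIN1 and PRDX1. Its median was 0.70. NQO1, a quinone reductase that uses NADPH, was at 32.1, 36.7 and 31.2 CPM in controls against 60.04, 65.2 and 60.9 CPM with ML210 under the SK-N-AS label, and 198, 214 and 176 against 327, 328 and 284 CPM under the SK-N-BE(2) label. All ML210 libraries stood above all controls under either label, and the log2 fold change was 0.78 ± 0.048 (adjusted p = 8.7e-06). PIR, an iron-binding nuclear protein of the cupin family, stood at 30.5, 33.7 and 36.2 CPM in controls against 45.8, 54.6 and 52.96 CPM with ML210 under the SK-N-AS label, and 72.8, 65.3 and 68.5 against 109, 96.2 and 99.9 CPM under the SK-N-BE(2) label. The change was nearly equal under both labels (0.61 and 0.56) and came to 0.59 ± 0.038 in common (adjusted p = 9.5e-06). TRIM16L was at 6.32, 6.44 and 5.59 CPM in controls against 15.3, 13.4 and 11.9 CPM with ML210 under the SK-N-AS label, and 13.9, 14 and 12.6 against 33.9, 32.7 and 25.5 CPM under the SK-N-BE(2) label. It had the smallest p of all genes tested (log2 fold change 1.16 ± 0.063, adjusted p = 4.8e-06), and its near-identical relative TRIM16, a ubiquitin ligase of the tripartite motif family, rose by 0.70 ± 0.089. TRIM16L (chr17:18697998-18736118, GRCh38) and TRIM16 (chr17:15627960-15684311) lie apart on chromosome 17, and reads could be split between them, so their separate values are uncertain. OSGIN1, an oxidative stress-induced growth inhibitor, rose from 1.38, 0.849 and 0.980 to 2.28, 2.44 and 2.68 CPM labelled SK-N-AS and from 3.47, 3.02 and 2.62 to 24.1, 16.9 and 9.38 CPM labelled SK-N-BE(2), by 1.88 ± 0.26. PRDX1, a peroxidase that reduces hydrogen peroxide with thioredoxin, rose by 0.34 ± 0.072. OSGIN1 and PRDX1 were added to the named genes after their values were seen.

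HMOX1, the haem oxygenase that releases iron from haem, had the largest fitted change in this group but missed the threshold. It was at 9.53, 9.23 and 7.49 CPM in controls against 34.4, 30.4 and 27.6 CPM with ML210 under the SK-N-AS label, and 6.39, 5.95 and 5.12 against 148, 58.2 and 23.5 CPM under the SK-N-BE(2) label. The ML210 libraries were above the controls in 6 of 6 pairs with no overlap, and the 3 ML210 libraries labelled SK-N-BE(2) lay far from one another. The common estimate was 2.55 ± 0.46 with an adjusted p of 0.064, and the averaged line-specific responses gave 2.59 with an adjusted p of 0.017. TXNRD1, the cytosolic thioredoxin reductase, was at 0.61 in common (adjusted p = 0.11), with 0.27 labelled SK-N-AS and 0.95 labelled SK-N-BE(2). Its difference between the labels was called (0.68 ± 0.096, adjusted p = 0.019). These genes and SRXN1, at -0.0058 and 1.33 under the 2 labels, were named after their values were seen. The common fit counts such a difference between the labels as spread.

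The glutathione and cystine group had 7 of 16 tested members higher and none lower, with a median of 0.27. It had 3 called members without SK-N-BE(2) replicate 2 and 4 without SK-N-BE(2) replicate 3. SLC7A11, the cystine importer of system xc-, was at 7.78, 9.37 and 9.35 CPM in controls against 19.9, 17.8 and 19.3 CPM with ML210 under the SK-N-AS label, and 12.98, 11.01 and 10.9 against 79.8, 37.9 and 22.6 CPM under the SK-N-BE(2) label. It rose in 6 of 6 pairs without overlap, by 1.47 ± 0.25, but its adjusted p of 0.048 lay close to the threshold and 8 of 16 alternatives ended the call. GCLM, the modifier subunit of glutamate-cysteine ligase, was at 27.8, 20.2 and 21.3 CPM in controls against 37.5, 36.1 and 32.7 CPM with ML210 under the SK-N-AS label, and 40.5, 33.3 and 31.5 against 121, 87.1 and 65.7 CPM under the SK-N-BE(2) label, and rose by 0.99 ± 0.16 (adjusted p = 0.038). It was called in 11 of 16 alternatives. GCLC, the catalytic subunit of the same enzyme, rose less, by 0.29 ± 0.045 (adjusted p = 0.0084), and was called in all 16 alternatives. TKT, a transketolase of the pentose phosphate pathway, rose by 0.26 ± 0.041. ABCC2, an export pump for glutathione conjugates, rose by 1.16 ± 0.097. It was at 64.2, 46.7 and 34.4 CPM in the controls and 144, 114 and 66.3 CPM with ML210 labelled SK-N-BE(2). Labelled SK-N-AS it was at most 1.04 CPM, and its control level there was 0.57% of the other label's, within the range of the traces given above. Whether those reads come from the cells of that label was not tested. GSTP1, a glutathione transferase, rose by 0.26 ± 0.054, and was named after its value was seen.

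Among 12 tested aldo-keto and carbonyl reductases, 3 rose and none fell, and 1 rose without SK-N-BE(2) replicate 2. AKR1C3, which reduces prostaglandins and steroids, was at 25.5, 18.9 and 16.3 CPM in controls against 44.8, 35.5 and 32.99 CPM with ML210 under the SK-N-AS label, and 2.16, 2.81 and 1.94 against 4.83, 4.55 and 3.42 CPM under the SK-N-BE(2) label, and rose by 0.90 ± 0.070 (adjusted p = 5.2e-05) with almost equal changes under both labels. AKR1C2, a close relative, rose by 0.88 ± 0.18 and was called in 10 of 16 alternatives, and reads of the AKR1C genes may be shared. AKR1B10 rose by a fitted 3.29. It had 0 reads in all 3 controls labelled SK-N-AS and 0, 4 and 2 reads with ML210 there, so its common change rested on the SK-N-BE(2) label, where 19, 14 and 9 reads in controls stood against 345, 137 and 29. It was not called without SK-N-BE(2) replicate 1 or 2. Of 12 regulators of NRF2 edgeR called 1, MAFG, the small MAF partner (0.42 ± 0.062, adjusted p = 0.0078). NFE2L2 itself was at -0.018, KEAP1 at 0.10 and BACH1, a repressor at the same elements, at 0.033, none of them called by edgeR. DESeq2 and the averaged responses each called 2 of the 12 higher.

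**Figure D3:**
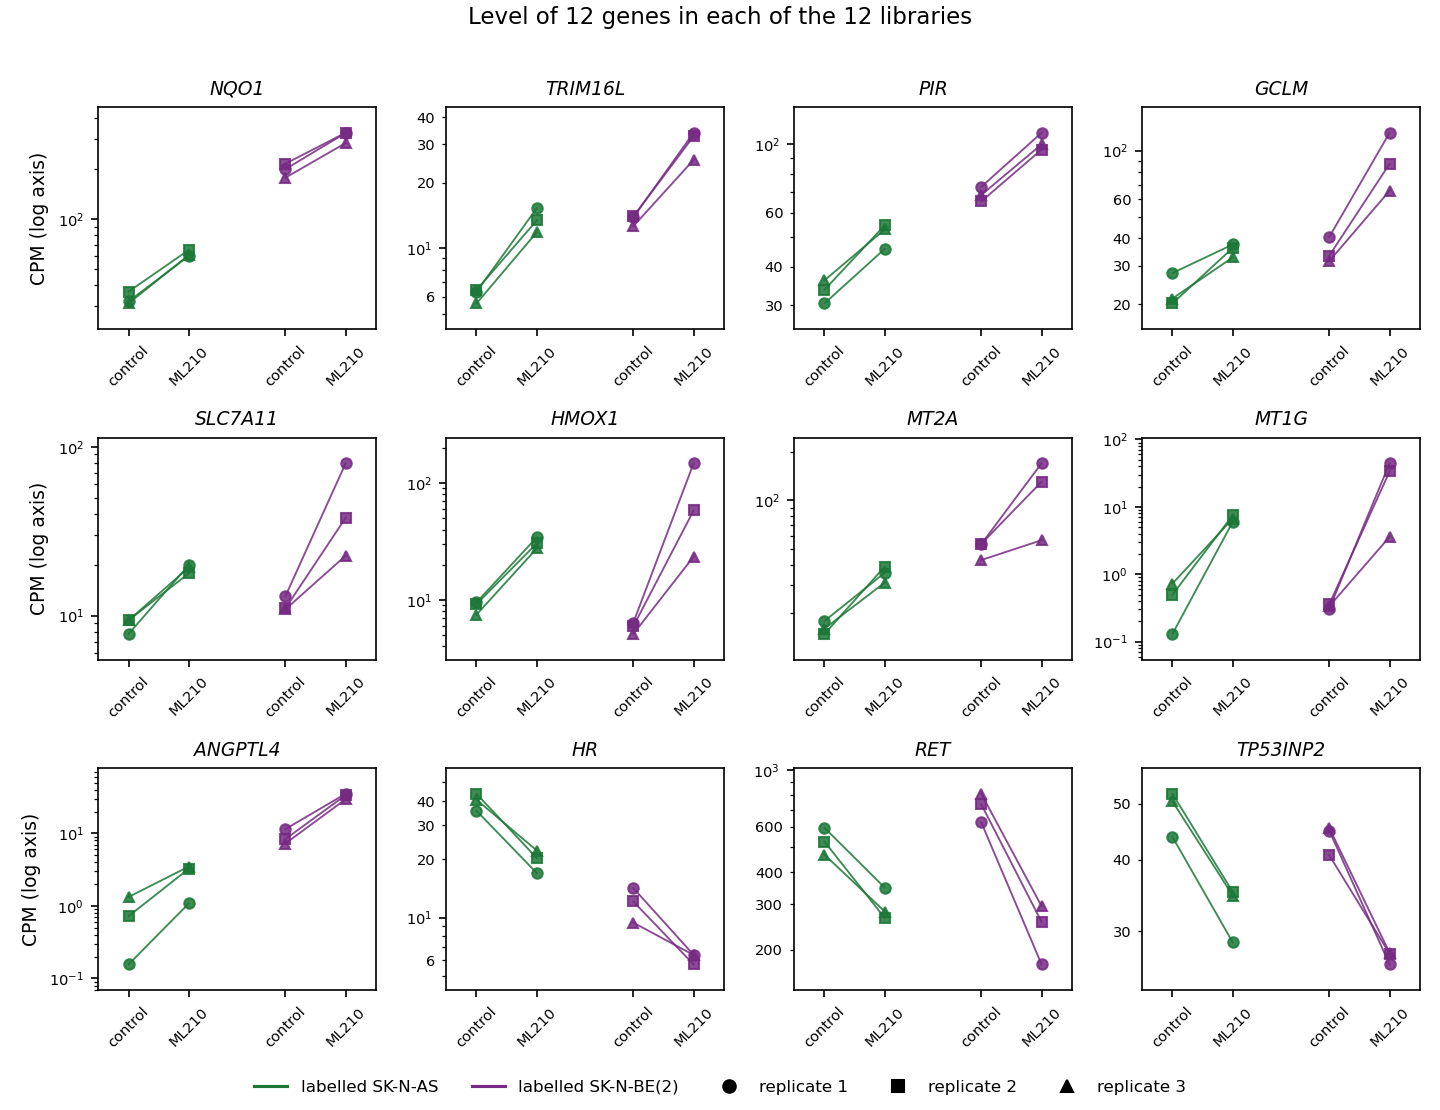
Level in CPM (log axis, scaled per panel) of 12 genes in every library, with a line joining the control and ML210 library of the same label and replicate number. NQO1, TRIM16L and PIR rose by similar steps in all 6 pairs, whereas SLC7A11, HMOX1 and MT1G rose further in some pairs labelled SK-N-BE(2) than in others, and HR, RET and TP53INP2 fell in all 6.

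The promoters of called NRF2 targets and metallothioneins were read from RefSeq (GRCh38.p14, 250 bases before to 50 after the start of transcription). The 6 genes were taken in order of p among those with an entry. They were searched on both strands for the antioxidant response element core TGACNNNGC and the metal response element core TGCNCNC. Of NQO1, PIR, AKR1C3, ABCC2, TRIM16 and MT1H, only PIR held the antioxidant core. It lies 26 to 34 bases after the start, on the strand opposite to transcription. Over 27305 promoters of this length, 13.6% held the antioxidant core and 55.2% the metal core. The antioxidant core was in 23.0% of the 135 same-way genes that rose and have a promoter entry, in 15.5% of 206 that fell and in 1922 of the 12785 genes tested that have one. These shares describe letters in a short window and say nothing of binding, and many known elements lie further out. The PIR promoter (chrX:15493284-15493583, minus strand) is shown as the one with a match in that group, with the antioxidant core in capitals. The promoters of MT1H (chr16:56669564-56669863, plus strand), MT2A (chr16:56608334-56608633, plus) and MT1X (chr16:56682220-56682519, plus) are shown because the metallothioneins moved together, with the metal core in capitals. MT2A and MT1X were added after their values were seen.
PIR: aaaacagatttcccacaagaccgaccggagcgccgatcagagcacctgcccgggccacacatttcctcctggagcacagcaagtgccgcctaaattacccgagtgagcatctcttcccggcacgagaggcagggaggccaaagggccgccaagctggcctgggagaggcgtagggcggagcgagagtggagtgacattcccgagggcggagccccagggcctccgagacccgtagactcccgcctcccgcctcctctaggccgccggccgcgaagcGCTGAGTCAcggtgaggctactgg
MT1H: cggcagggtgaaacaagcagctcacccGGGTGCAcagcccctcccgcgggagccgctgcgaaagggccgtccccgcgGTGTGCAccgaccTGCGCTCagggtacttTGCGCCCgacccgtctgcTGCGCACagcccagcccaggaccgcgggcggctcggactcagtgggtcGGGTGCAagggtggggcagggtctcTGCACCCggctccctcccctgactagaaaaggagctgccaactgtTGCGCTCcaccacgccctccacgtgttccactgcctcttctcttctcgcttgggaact
MT2A: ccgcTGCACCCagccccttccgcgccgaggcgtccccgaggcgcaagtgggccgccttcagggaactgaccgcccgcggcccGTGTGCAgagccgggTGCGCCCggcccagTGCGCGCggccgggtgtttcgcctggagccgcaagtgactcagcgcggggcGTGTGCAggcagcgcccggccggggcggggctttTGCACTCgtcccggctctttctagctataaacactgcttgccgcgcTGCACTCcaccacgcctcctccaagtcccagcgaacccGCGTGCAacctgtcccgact
MT1X: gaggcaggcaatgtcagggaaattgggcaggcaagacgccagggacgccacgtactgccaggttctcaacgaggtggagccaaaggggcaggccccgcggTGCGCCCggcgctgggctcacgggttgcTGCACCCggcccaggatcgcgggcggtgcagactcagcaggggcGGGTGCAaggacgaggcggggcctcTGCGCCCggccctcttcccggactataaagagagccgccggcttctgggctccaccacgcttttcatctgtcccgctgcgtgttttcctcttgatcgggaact
MT1H and MT2A each held 8 metal cores and MT1X held 4, against a mean of 0.917 over all promoters. MT2A and MT1X also held 1 antioxidant core each, not marked.

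Metallothioneins also rose. The 7 metallothionein genes that passed the filter on low counts rose, 7 of 10 tested members of a list of 14 (median 1.18, with 1.80 labelled SK-N-AS and 1.03 labelled SK-N-BE(2)), and the other 3 tested members of the list, the zinc exporter SLC30A1 (0.17), the importer SLC39A10 (-0.053) and MTF1 (-0.10), did not pass the test. MT2A, the most abundant of them, was at 17.9, 14.9 and 16.1 CPM in controls against 35.6, 38.9 and 30.97 CPM with ML210 under the SK-N-AS label, and 53.6, 53.8 and 42.7 against 169, 130.0 and 56.6 CPM under the SK-N-BE(2) label. No ML210 library overlapped its controls, but SK-N-BE(2) replicate 3 changed least, and the common change was 1.11 ± 0.16 (adjusted p = 0.028). MT1X was at 1.44, 1.49 and 0.932 CPM in controls against 5.29, 4.75 and 3.04 CPM with ML210 under the SK-N-AS label, and 3.04, 3.05 and 3.28 against 5.91, 4.69 and 4.72 CPM under the SK-N-BE(2) label. It rose by 1.20 ± 0.19 and was the metallothionein most often called, in 15 of 16 alternatives. MT1G was nearly silent in controls, at 0.130, 0.497 and 0.727 CPM labelled SK-N-AS and 0.308, 0.359 and 0.335 CPM labelled SK-N-BE(2). With ML210 it reached 6, 7.53 and 6.68 and 44.3, 33.5 and 3.59 CPM, a fitted change of 5.01 ± 0.64. MT1F (3.46), MT1H (5.26), MT1M (2.69) and MT1E (1.17) stood mostly below 2 CPM, apart from MT1E labelled SK-N-BE(2) and the ML210 libraries 1 and 2 of MT1H there. MT1H had 1, 0 and 0 reads in the SK-N-AS controls, so its fitted change depends on the prior count. In the SK-N-BE(2) controls MT1H had 0, 6 and 2 reads and MT1F had 0, 21 and 6. The metallothionein genes are near-identical neighbours on chromosome 16 (MT2A at chr16:56608199-56609497 and MT1X at chr16:56682424-56684196), and reads could be split between them. Without SK-N-BE(2) replicate 2 the list had 2 called members, without SK-N-AS replicate 2 it had 3, and without SK-N-AS replicate 1 or 3 or SK-N-BE(2) replicate 3 it had 4. With SK-N-AS replicates 2 and 3 left out together it had 1.

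Genes with a part in ferroptosis moved in both directions. Of 23 tested genes listed as suppressors, 2 rose (SLC7A11 and AIFM2) and 2 fell (DHCR7 and SCD). Among all genes tested 0.926% were called higher and 1.24% lower. The place of DHCR7 among suppressors is in doubt and was not tested, so its fall has no clear direction for ferroptosis. AIFM2, the ubiquinone reductase that works beside GPX4, was at 19.2, 17.7 and 15.4 CPM in controls against 27.2, 25.2 and 24.1 CPM with ML210 under the SK-N-AS label, and 26.7, 24.6 and 24.6 against 59.1, 44.2 and 31.4 CPM under the SK-N-BE(2) label. Its ML210 and control libraries did not overlap, the change was 0.67 ± 0.092 (adjusted p = 0.0069), and all 16 alternatives called it. SCD, which makes monounsaturated fatty acids, fell by 0.30, and DHCR7, the last enzyme of cholesterol synthesis, by 0.24. The suppressor list had 1 gene higher and 0 lower without SK-N-BE(2) replicate 2 or 3, and 2 and 0 without SK-N-BE(2) replicate 1. Of 23 tested promoters of ferroptosis, 3 rose. CHAC1, which degrades glutathione, rose by 0.63 ± 0.13, POR, the cytochrome P450 reductase, by 0.25 ± 0.049, and SLC1A5, a glutamine transporter, by 0.22 ± 0.040. CHAC1 was higher in 5 of 6 pairs, was called within neither label and was called in 9 of 16 alternatives. The list of promoters had no call without SK-N-BE(2) replicate 2. ACSL4, which loads polyunsaturated fatty acids into phospholipids, was at -0.11 and was not called (adjusted p = 0.23). No call was made among 24 tested selenoproteins and their synthesis factors (median -0.012) or among 20 iron-handling genes (median 0.041). At an unadjusted p under 0.05 edgeR had 3 selenoprotein genes higher and 4 lower, and 5 iron genes higher and 0 lower. Over all genes tested, 3276 of 20304 had such a p. DESeq2 called 1 and 4 of the 2 lists higher, as did the averaged responses, and limma-voom called 0 and 1. The ferritin chains FTH1 and FTL, which store iron, were higher in 6 of 6 pairs but not called, at 0.71 and 0.82. FTH1 changed by 0.29 labelled SK-N-AS and 1.13 labelled SK-N-BE(2), and that difference was called (adjusted p = 0.035). Ferritin reads can be shared with pseudogene copies.

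The largest called rise of a protein-coding gene at a mean log2 CPM above 2 was that of ANGPTL4, a secreted inhibitor of lipoprotein lipase and a target of PPAR and hypoxia signalling. It was at 0.156, 0.721 and 1.33 CPM in controls against 1.08, 3.26 and 3.49 CPM with ML210 under the SK-N-AS label, and 11.4, 8.33 and 7.24 against 35.1, 33.6 and 29.5 CPM under the SK-N-BE(2) label. SK-N-AS libraries overlapped because control replicate 3 exceeded ML210 replicate 1, though each pair rose, and the common change was 1.90 ± 0.12 (adjusted p = 9.5e-06). The 30 tested genes of mitochondrial fatty acid oxidation and PPAR targets had a median of 0.074. Of them edgeR called 4 higher and 0 lower, beside 0.926% and 1.24% of all genes tested. DESeq2, limma-voom, the averaged responses and the fit without SK-N-AS replicate 3 each called 1 lower. CPT1A, which commits fatty acids to mitochondrial import, was at 35.7, 37.5 and 29.9 CPM in controls against 57.7, 60.9 and 61.1 CPM with ML210 under the SK-N-AS label, and 69.2, 69.6 and 67.7 against 86.2, 93.6 and 89.9 CPM under the SK-N-BE(2) label, and rose by 0.59 ± 0.085. It was called in all 16 alternatives. SLC25A20, the carnitine carrier, rose by 0.43 ± 0.086 and CPT1C, a brain form of the transferase, by 0.18 ± 0.041. The enzymes of the oxidation spiral, such as ACADVL (0.16), ACADM (-0.069) and HADHA (-0.0013), were not called. The list had 2 calls without SK-N-BE(2) replicate 2 or 3 or SK-N-AS replicate 1 or 2.

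PANX2, a large-pore channel of the pannexin family, had too low a mean for the list of largest changes and was named after its values were seen. It was at 1.17, 1.91 and 1.04 CPM in controls against 3.19, 5.25 and 3.43 CPM with ML210 under the SK-N-AS label, and 2.01, 1.21 and 1.28 against 10.6, 5.74 and 3.33 CPM under the SK-N-BE(2) label, and rose by 1.78 ± 0.16 (adjusted p = 0.00019). PALM3, a paralemmin, rose by 1.18 ± 0.25, SLC38A6, of an amino acid transporter family, by 0.93 ± 0.18, and ABHD4, a lipase of N-acyl phospholipids, by 0.87 ± 0.16. They were called in 9, 11 and 11 of 16 alternatives. All 3 had larger changes labelled SK-N-BE(2) (1.58, 1.21 and 1.13) than labelled SK-N-AS (0.83, 0.66 and 0.56), a difference that did not pass its test (adjusted p = 0.53, 0.55 and 0.42).

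**Figure D4:**
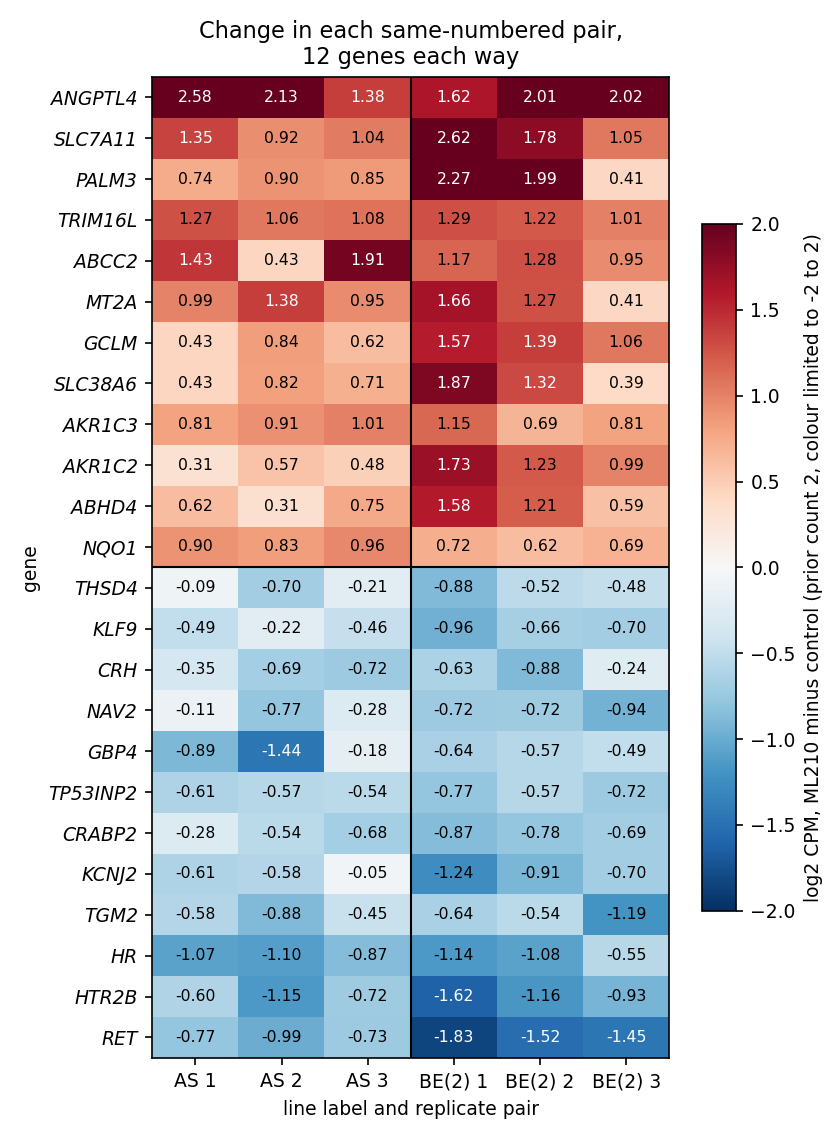
Change in log2 CPM (ML210 minus control, prior count 2) in each of the 6 same-numbered pairs for the 12 genes with the largest shared rise and the 12 with the largest shared fall. By the rule that chose them all 24 genes have one sign across the row, and the sizes differ most between pairs labelled SK-N-BE(2) for SLC7A11, PALM3 and SLC38A6.

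Targets of ATF4, the factor that raises amino acid synthesis and transport under translational stress, rose in 7 of 37 cases and fell in none (median 0.18). Among all genes tested 0.926% were called higher and 1.24% lower. SLC6A9, a glycine transporter, was at 8.53, 6.58 and 5.23 CPM in controls against 15.7, 10.6 and 9.80 CPM with ML210 under the SK-N-AS label, and 12.5, 14.1 and 13.2 against 16.7, 21.4 and 19.6 CPM under the SK-N-BE(2) label, and rose by 0.67 ± 0.076 (adjusted p = 0.0013). CEBPB, a leucine zipper factor, was at 51.6, 48.4 and 48.98 CPM in controls against 62.9, 61.7 and 63.3 CPM with ML210 under the SK-N-AS label, and 43.4, 50.1 and 42.2 against 67.2, 68.2 and 54.3 CPM under the SK-N-BE(2) label, and rose by 0.41 ± 0.047. ATF4 itself rose by 0.20 ± 0.038, TRIB3, a pseudokinase induced by it, by 0.33 ± 0.059, and AARS1, the alanyl-tRNA synthetase, by 0.21 ± 0.045. CHAC1 and SLC7A11, given above, complete the 7. Of 20 chaperone genes of the unfolded protein response 4 rose by small steps, CANX by 0.23 ± 0.040, CALR by 0.19 ± 0.037, HSP90B1 by 0.18 ± 0.032 and HYOU1 by 0.16 ± 0.035. All 20 fitted changes were positive (median 0.10). HSPA5, the main chaperone of the endoplasmic reticulum, was at 0.059 and was not called. The ATF4 list had 2 called members, and the chaperone list 0, without SK-N-BE(2) replicate 2. Without SK-N-BE(2) replicate 3 they had 4 and 1, without SK-N-AS replicate 1 they had 4 and 2, and without SK-N-AS replicate 2 the chaperone list had 2.

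Lysosomal genes rose in 6 of 27 cases and fell in none, with a median of 0.18, where 0.926% of all genes tested were called higher. TFE3, a transcription factor of lysosome biogenesis, was at 43.1, 46.2 and 40.5 CPM in controls against 57.7, 58.01 and 53.9 CPM with ML210 under the SK-N-AS label, and 66.6, 68.7 and 62.2 against 99.8, 98.6 and 88.4 CPM under the SK-N-BE(2) label. The libraries did not overlap, and the change of 0.46 ± 0.042 (adjusted p = 0.00019) was called in all 16 alternatives. Others were the membrane protein LAMP2 (0.23), the cholesterol exporter NPC1 (0.25) and the calcium channel MCOLN1 (0.28). The list had 2 called members without SK-N-BE(2) replicate 2 or 3. SQSTM1, the autophagy receptor that also binds KEAP1, was higher in 6 of 6 pairs at 0.79 ± 0.19 but not called (adjusted p = 0.11), and it rose when the line-specific responses were averaged (adjusted p = 0.015). No proteasome gene of 29 was called by edgeR in the common test, although 27 fitted changes were positive (median 0.19). The averaged responses called 14 of them higher, and the medians were 0.039 labelled SK-N-AS and 0.33 labelled SK-N-BE(2). At an unadjusted p under 0.05 edgeR had 19 proteasome genes higher and 0 lower, DESeq2 called 8 and limma-voom 3. Over all genes tested, 3276 of 20304 had an unadjusted p under 0.05 by edgeR.

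**Figure D5:**
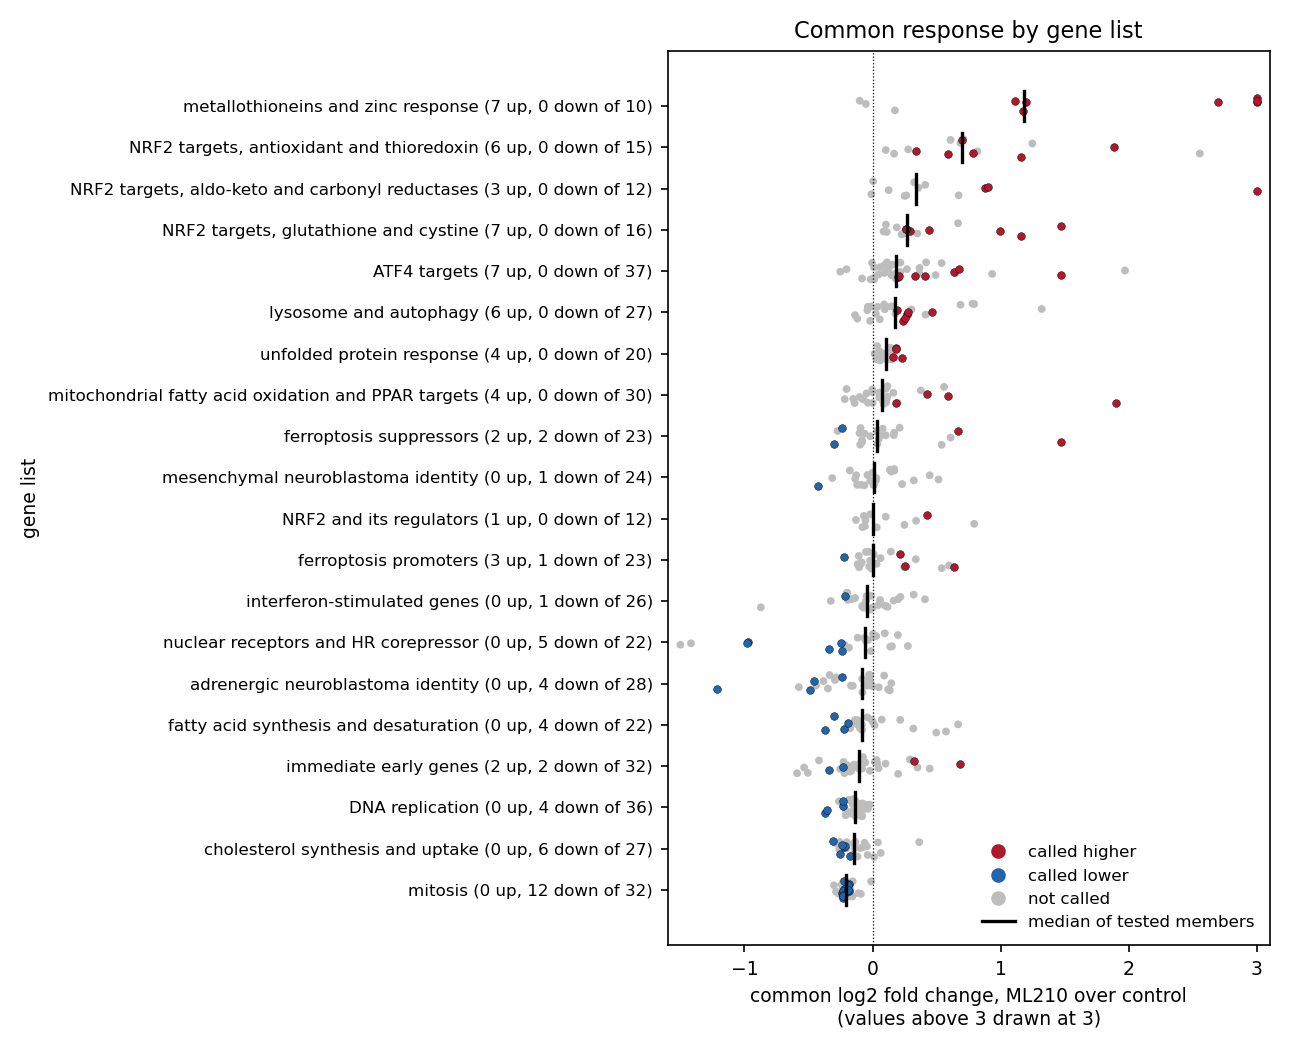
Common log2 fold change (x axis) of the tested members of each gene list with at least 1 called member (rows, ordered by median). Points are genes, red and blue where called, and the bar is the median, which runs from 1.18 for metallothioneins to -0.21 for mitosis.

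HR, a corepressor of nuclear receptors with histone demethylase activity, fell by a similar step under both labels. It was at 35.6, 43.6 and 40.6 CPM in controls against 16.96, 20.3 and 22.2 CPM with ML210 under the SK-N-AS label, and 14.2, 12.1 and 9.41 against 6.41, 5.72 and 6.40 CPM under the SK-N-BE(2) label. All 6 ML210 libraries were below their controls without overlap, and the change was -0.98 ± 0.077 (adjusted p = 5.2e-05), with -1.02 labelled SK-N-AS and -0.93 labelled SK-N-BE(2). TP53INP2, a nuclear and autophagy protein, was at 43.8, 52.1 and 50.5 CPM in controls against 28.7, 35.1 and 34.6 CPM with ML210 under the SK-N-AS label, and 44.9, 40.7 and 45.4 against 26.3, 27.4 and 27.5 CPM under the SK-N-BE(2) label, and fell by 0.63 ± 0.047 (adjusted p = 3.4e-05). HTR2B, a serotonin receptor, was at 6.71, 5.64 and 4.91 CPM in controls against 4.43, 2.52 and 2.98 CPM with ML210 under the SK-N-AS label, and 7.43, 7.79 and 8.22 against 2.40, 3.47 and 4.31 CPM under the SK-N-BE(2) label, and changed by -1.03 ± 0.13. These 3 were called in all 16 alternatives. LINC02623, a long non-coding RNA named after its value was seen, changed by -1.20 ± 0.12 and was among the 45 genes above. TGM2, a transglutaminase, fell by 0.72, KCNJ2, a potassium channel, by 0.69, NAV2, a neuron navigator protein, by 0.59 and KLF9, a zinc finger factor responsive to hormones, by 0.58. NAV2 was called in 8 of 16 alternatives, KCNJ2 in 12 and the others in 14. CRH, the corticotropin-releasing hormone, fell by 0.58. GBP4 and THSD4 were called lower at -0.60 and -0.57, but their controls labelled SK-N-AS held 0.72% and 1.8% of the level labelled SK-N-BE(2), near the levels of the traces. Of the 248 same-way genes that fell, 16 had under 3% of the other label's level in the SK-N-AS controls, and of the 187 that rose 6 did.

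The list of nuclear receptors, their corepressors and retinoid genes had a median of -0.058. By edgeR 5 of 22 tested members were lower and 0 higher, beside 1.24% and 0.926% of all genes tested. Limma-voom, the averaged responses and the fit without SK-N-AS replicate 2 each called 1 higher. They included HR, STRA6 and RARB. STRA6, a receptor for retinol uptake, changed by -0.34 ± 0.060. RARB, a retinoic acid receptor whose gene is itself induced by retinoic acid, changed by -0.98 ± 0.23 at 3.43 CPM or less. RARB was called in 6 of 16 alternatives, and its change was positive in 1 pair labelled SK-N-AS. Without SK-N-BE(2) replicate 2 or 3 the list had 2 calls. CRABP2, which was not on the list, is the carrier that hands retinoic acid to its receptors. It was at 12.4, 21.3 and 22.1 CPM in controls against 10.2, 14.7 and 13.8 CPM with ML210 under the SK-N-AS label, and 575, 672 and 627 against 314, 393 and 389 CPM under the SK-N-BE(2) label. It fell in 6 of 6 pairs by 0.66 (adjusted p = 0.00071), although its SK-N-AS libraries overlapped. Its SK-N-AS controls held 3.0% of the SK-N-BE(2) level.

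Genes of adrenergic neuroblastoma identity, the sympathetic program of most neuroblastomas, fell in 4 of 28 cases and rose in none (median -0.080). Among all genes tested 1.24% were called lower and 0.926% higher. RET, a receptor tyrosine kinase for GDNF family ligands, was at 595, 526 and 468 CPM in controls against 348, 266 and 282 CPM with ML210 under the SK-N-AS label, and 624, 734 and 807 against 176, 256 and 295 CPM under the SK-N-BE(2) label. The groups were far apart under both labels, and the common change was -1.21 ± 0.17 (adjusted p = 0.030). GATA2, a zinc finger factor of that program, changed by -0.24 ± 0.042, PHOX2A, a homeobox factor, by -0.49 ± 0.092 and SLC6A2, the noradrenaline transporter, by -0.46 ± 0.075. Without SK-N-BE(2) replicate 2 the list had 0 calls, and without SK-N-BE(2) replicate 3 it had 1. Of 24 mesenchymal identity genes edgeR called 1, PRRX1, a homeobox factor, at -0.43. The averaged responses did not call it and called 1 other member higher. It had 2, 96 and 88 reads in the SK-N-AS controls and 16447 to 18188 in those labelled SK-N-BE(2). Its reads labelled SK-N-AS are in the range of the traces.

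Some genes of lipid synthesis fell, where edgeR called 1.24% of all genes tested lower and 0.926% higher. Of 22 tested genes of fatty acid synthesis, edgeR called 4 lower and 0 higher (median -0.082). DESeq2 called 5 lower and 2 higher, limma-voom 6 and 1, the averaged responses 6 and 2, and scaling by library totals 3 and 1. SREBF1, the factor that drives this pathway, was at 149, 210.4 and 200.2 CPM in controls against 115, 170.4 and 164 CPM with ML210 under the SK-N-AS label, and 66.7, 73.4 and 80.4 against 44.98, 56.7 and 63.4 CPM under the SK-N-BE(2) label. It was lower in 6 of 6 pairs by 0.37 (adjusted p = 0.0011), with overlap labelled SK-N-AS, where control replicate 1 lay below 2 of the ML210 libraries. ACACA and ACLY, which make malonyl-CoA and acetyl-CoA, fell by 0.22 and 0.19, beside SCD. In cholesterol synthesis and uptake 6 of 27 genes fell and none rose by edgeR, DESeq2 or limma-voom (median -0.15). They included the enzymes MVK (-0.31), ACAT2 (-0.18) and FDFT1 (-0.21), and DHCR7. The 2 lists had 1 and 0 called members lower without SK-N-BE(2) replicate 2, and 1 each without SK-N-BE(2) replicate 3. The cholesterol list had 2 without SK-N-BE(2) replicate 1 or SK-N-AS replicate 3, 3 without SK-N-AS replicate 1 and 10 without SK-N-AS replicate 2, and scaling by library totals left 3 lower.

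Some genes of mitosis and DNA replication fell by small amounts, where 1.24% of all genes tested were called lower. Of 32 tested mitosis genes 12 fell and none rose, and none of the 32 fitted changes was positive (median -0.21, with -0.15 labelled SK-N-AS and -0.25 labelled SK-N-BE(2)). The called changes lay between -0.24 and -0.19. They included the spindle checkpoint kinases BUB1 (-0.23 ± 0.042) and BUB1B (-0.19 ± 0.037), the kinesin KIF20A (-0.22 ± 0.043) and the cleavage furrow protein ANLN (-0.19 ± 0.035). Of 36 DNA replication genes 4 fell, and again no fitted change was positive (median -0.14). RRM2, the small subunit of ribonucleotide reductase, was at 503, 468 and 487 CPM in controls against 386, 380.3 and 363 CPM with ML210 under the SK-N-AS label, and 219, 188 and 190.3 against 145, 142 and 175 CPM under the SK-N-BE(2) label, and fell by 0.37 ± 0.051 (adjusted p = 0.0050). TYMS, which makes thymidylate, fell by 0.36, and FEN1 and PCNA, of the replication fork, by 0.23 and 0.23. The mitosis count changed with the fit, with 2 called under library totals, 1 without SK-N-BE(2) replicate 1, 2 without SK-N-AS replicate 3, 3 without SK-N-BE(2) replicate 3, 4 without SK-N-AS replicate 1 and 0 without SK-N-BE(2) replicate 2, where the DNA replication count was also 0. DESeq2 called 23 mitosis genes lower. The list median was -0.18 under library totals. In bulk libraries fewer dividing cells and less RNA per cell cannot be told apart.

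Other lists held few calls or none, where edgeR called 0.926% of all genes tested higher and 1.24% lower. Of 32 immediate early genes 2 rose, the phosphatase DUSP4 (0.33 ± 0.060) and the AP-1 member FOSL1 (0.68 ± 0.12), and 2 fell, JUND (-0.23 ± 0.036) and the phosphatase DUSP1 (-0.34 ± 0.066). DUSP4 and FOSL1 were not called without SK-N-BE(2) replicate 2 or 3, FOSL1 also without SK-N-AS replicate 3, and DUSP1 without SK-N-AS replicate 1 or 3 or SK-N-BE(2) replicate 3. Of 26 interferon-stimulated genes 1 fell, OAS3 (-0.21 ± 0.041), which was not called without SK-N-AS replicate 2 or SK-N-BE(2) replicate 2 or 3. In 18 lists with 348 tested members edgeR made no call. They include cytosolic ribosomal proteins, nuclear-encoded and mitochondrially encoded respiratory chain genes, ribosome biogenesis, histones, heat shock, p53, hypoxia and NF-kB targets, neuronal genes and the BCL2 family, besides the selenoprotein, iron and proteasome lists. At an unadjusted p under 0.05 these 18 lists had 43 members higher and 28 lower, while 3276 of all 20304 genes tested had such a p. DESeq2 called 19 and 8 of their members, limma-voom 9 and 13, and the averaged responses 28 and 8. Over all genes tested these tools called 407 higher and 524 lower, 434 and 567, and 545 and 695. Mitochondrially encoded genes had opposite medians under the 2 labels, -0.33 labelled SK-N-AS and 0.17 labelled SK-N-BE(2). Of 5 marker lists for other cell types (blood, endothelium, epithelium, Schwann cells and fibroblasts), edgeR called 1 gene, the keratin KRT8 (-0.47). Controls labelled SK-N-AS held 1.49% of its SK-N-BE(2) level, within the range of the traces, and it rose in 1 SK-N-AS pair. KRT8 was not called without SK-N-BE(2) replicate 2. DESeq2 called 1 gene higher and 2 lower over these lists, limma-voom 1 and 3, and the averaged responses 1 and 3. The summed CPM of each marker list was compared between control and ML210 libraries by an exact sign-flip test over 6 pairs (two-sided p from 0.125 for blood to 0.781 for epithelium, smallest possible 0.03125). The sums were not put on a log scale, so the label with the higher level weighs most and the test cannot show an absence of change. Blood markers went from 296, 285 and 360 to 177, 206 and 315 CPM labelled SK-N-BE(2). Labelled SK-N-AS they went from 1.41, 3.19 and 2.82 to 1.55, 2.04 and 2.99 CPM. Fibroblast markers lay at 89.4 to 219 CPM labelled SK-N-AS and at 3253 to 4438 CPM labelled SK-N-BE(2), and blood markers at 1.41 to 3.19 and at 177 to 360.3 CPM.

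The difference between the 2 line-specific responses was called for 85 genes, 0.419% of genes tested, and 57 of these had opposite signs under the 2 labels. Of the 85, 2 were in the common response, RET and REC8. RET changed by -0.83 labelled SK-N-AS and by -1.60 labelled SK-N-BE(2), a difference of -0.77 ± 0.10 (adjusted p = 0.016). REC8, a meiotic cohesin subunit, was at 21.4, 25.6 and 25 CPM in controls against 18.3, 19.1 and 20.6 CPM with ML210 under the SK-N-AS label, and 72.2, 74.7 and 78.8 against 37.3, 43.8 and 48.3 CPM under the SK-N-BE(2) label. It changed by -0.31 and -0.81, a difference of -0.50 ± 0.093 (adjusted p = 0.047). The count of differences was 1 without SK-N-BE(2) replicate 2, 2 without SK-N-AS replicate 1 and 560 without SK-N-BE(2) replicate 3.

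Sizes also differed among the pairs labelled SK-N-BE(2). Replicate 1 had the largest rise of the 3 for 123 of the 187 same-way genes that rose (65.8%). Over all genes tested, replicate 1 had the highest of the 3 changes in 36.9%. The largest fall was that of replicate 1 for 189 of the 248 that fell (76.2%), and the matching share over all genes was not computed. The median change of the genes that rose was 0.47, 0.42 and 0.31 in replicates 1, 2 and 3 labelled SK-N-BE(2) and 0.29, 0.25 and 0.27 labelled SK-N-AS. Genes that fell had medians of -0.41, -0.31 and -0.20 labelled SK-N-BE(2) and -0.20, -0.21 and -0.23 labelled SK-N-AS. For DNA replication the median was -0.32 in SK-N-BE(2) replicate 1 and 0.013 in replicate 3. The libraries of one batch are not otherwise described, and the part of batch in these sizes was not tested.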

How the data were processed

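RNA of 12 samples labelled as control or ML210 was prepared as stranded Illumina mRNA libraries, per the labels' protocols. The deposited table holds raw read counts per gene, made by the authors with FastQC, Trimmomatic 1.4, HISAT2 2.2.1 and featureCounts 2.0.5 on GRCh38 (hg38), per the submitters' processing notes. Strand setting and handling of multimapping reads were not given in the sources used here. Of 61552 genes, 36967 had a read and 20304 passed filterByExpr. Library totals were 54047293 to 83481963 reads. Biotypes and coordinates came from the GENCODE 29 annotation (GRCh38). Symbols came from a separate list of gene names, which matched 61399 genes, and from GENCODE 29 for the rest.

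Counts were fitted with edgeR 4.0.16 (robust quasi-likelihood, TMM, R 4.3.3) with 6 blocks of line label and replicate number and 1 ML210 term. A second fit had 1 ML210 term per label, which gave the within-label responses and their difference. P-values were Benjamini-Hochberg adjusted over all 20304 genes, and a gene was called under 0.05. The standard error is the size of the log2 fold change divided by the square root of F. CPM values use TMM library sizes, except the summed CPM of the marker lists, which use plain library totals. The replicate numbers pair the samples because the labels give them as a batch number. Deviations of same-numbered libraries had correlations of 0.357, 0.068 and 0.121 labelled SK-N-AS and 0.096, 0.120 and 0.169 labelled SK-N-BE(2). Labelled SK-N-AS, control 2 correlated more with ML210 3 (0.189) than with its own number, and control 3 with ML210 2 (0.125), so only the labels pair replicates 2 and 3 there.

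Alternatives were no replicate block, batch shared by both labels, averaged line-specific responses, DESeq2 size factors, library totals, DESeq2 1.42.0, limma-voom 3.58.1, 2 other filters, each pair left out, and SK-N-AS pairs 2 and 3 left out together, the last chosen after seeing the data. Members, gene lists and rules were chosen with earlier results of these data known. Named were GPX4 and MYCN, then the 12 largest same-way changes each way among protein-coding genes moving alike in 6 of 6 pairs, at a mean of log2 CPM 2 or more. For each list up to 4 called members with the smallest p were added, or every called member of lists with 5 or fewer calls, then called genes whose response also differed between the labels. Some genes that the rule names are not reported here. Other names were chosen after values were seen. These are HKDC1, CRYM, SERPINB1, TTC9, ENPP2, HMOX1, TXNRD1, SRXN1, FTH1, FTL, SQSTM1, OSGIN1, PRDX1, GSTP1, PANX2, LINC02623, MT1E, MT1M and FDFT1, and list members named with a value that did not pass. Scripts were tested on simulated counts.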

Additional observations from a re-analysis of the deposited data

Results flagged for a closer look

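The response differed between the labels by a test of the difference itself (edgeR, adjusted over all genes tested) in 5 of the genes named. Given as the SK-N-BE(2) minus the SK-N-AS log2 change, it was 0.68 for TXNRD1 and 0.84 for FTH1, which rose further labelled SK-N-BE(2), and 0.66 for ENPP2, which moved in opposite directions. It was -0.77 for RET and -0.50 for REC8, which fell further labelled SK-N-BE(2). ENPP2 controls labelled SK-N-BE(2) held only 1.43% of the SK-N-AS level, and its ML210 libraries there overlapped them. With SK-N-BE(2) replicate 2 left out, 1 gene in all passed the test of the difference.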

How the results depend on the processing

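The replicate block decided much of the count of calls. With no replicate block 76 genes were higher, 50 lower and 126 same-way, with 6 and 279 within the SK-N-AS and SK-N-BE(2) labels and 1 in the difference. With batch shared by both labels these counts were 95, 68, 163, 8, 455 and 1. Averaging the line-specific responses gave 545 higher, 695 lower and 1179 same-way. DESeq2 gave 407, 524 and 926, with 175 within SK-N-AS and 377 in the difference. Limma-voom gave 434, 567 and 951, with 125 within SK-N-AS. With no filter on low counts there were 708, 850 and 1428, then 454, 2085 and 794. A mean CPM of at least 1 gave 23 within SK-N-AS. Library totals gave 324 higher and 129 lower, and 60 within SK-N-AS. DESeq2 size factors gave 171 and 170. Leaving out 1 pair gave 44 to 167 higher, 29 to 175 lower, 73 to 336 same-way, 11 to 119 within SK-N-AS, 291 to 1864 within SK-N-BE(2) and 1 to 560 in the difference. Leaving out SK-N-AS pairs 2 and 3, which held traces of the other label, gave 159, 151, 298, 0, 916 and 0. That leaves 1 pair labelled SK-N-AS, which is assumed to vary like the SK-N-BE(2) pairs, so the counts of 0 carry no information on that label. This was chosen after seeing the data. Apart from the number of samples or genes in the fit, the cause of these changes was not tested. Of 88 named genes none reversed. Fewest were lost with limma-voom or no filter (0 each) and most without SK-N-BE(2) replicate 2 (58). Genes under 1 CPM under 1 label, such as MT1H or AKR1B10, have the least depth behind them.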
